A study of Brassica napus with 12 samples.

Results

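Developing seeds of the rapeseed inbred lines A28 and R8Q10 were compared gene by gene, with 3 libraries per line, taken from a series of 12 libraries of 4 lines. All 47207 genes listed for these 6 libraries entered, of 50338 listed in the series, including 3499 that are not listed for the other lines, SW and YH25005. Both lines were grown in the field, their flowers were bagged so that seed set by selfing, and seeds were collected 24 days after pollination. No treatment, mutation or transgene is named for either line, so the contrast is between the lines. Their genotypes cannot be told apart from other differences between the plants or harvests of the lines. The study set out to compare embryos from lines of high and of low linolenic acid. Neither line is called high or low here, as its oil trait is missing from the labels. The labels name the tissue as unripe seeds while the extraction protocol speaks of embryos. No marker gene of embryo, endosperm or seed coat could be matched to an ID, so the tissue was not checked against markers. Nothing in the labels says whether replicates came from separate plants, so the p-values reflect no more than how these libraries spread.

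Rapeseed (Brassica napus) is an allotetraploid that carries the A genome of a turnip-like parent and the C genome of a cabbage-like parent. Most genes exist as a homoeologous pair, one copy in each subgenome, and long parts of the chromosomes match in pairs, such as A10 with part of C9, A2 with C2 and A1 with C1. Chromosome parts can be exchanged between matching A and C chromosomes, and rapeseed lines are known to differ in such parts. Linolenic acid, a polyunsaturated fatty acid, is made in the seed from linoleic acid by a desaturase of the endoplasmic reticulum and stored in the oil of the embryo. The IDs of the files name the chromosome and the order of genes on it. They could not be tied to enzymes or other functions, so the results are given by chromosome, by runs of neighbouring genes and by single IDs.

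Library totals lay between 30150457 and 40762254 counts, and 3 counts, the level that a gene with 0 counts could still have, came to between 0.0736 and 0.0995 CPM, the unit in which counts are scaled to a common library size. Across genes, correlations of log2 CPM lay between 0.810 and 0.899 within A28 and between 0.914 and 0.943 within R8Q10, against 0.511 to 0.638 between the lines. A28 had the wider spread, with a biological coefficient of variation of 0.516 against 0.355 in R8Q10. Folds and CPM below are on library sizes scaled with edgeR's trimmed mean (TMM). These are levels of bulk RNA, in which fewer cells of a type and less RNA per cell cannot be told apart.

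Called genes were found on every chromosome. The test called 7459 of the 47207 genes (15.8%), with 3899 higher and 3560 lower in A28 (edgeR quasi-likelihood test, Benjamini-Hochberg adjusted p at or under 0.05). Higher calls made up 8.26% and lower calls 7.54% of the genes. Higher genes were the more frequent in this fit. With TMM scaling kept, they were not with the replicate number as a block (5007 higher, 5167 lower). Nor were they with limma on weighted libraries (5786 and 5932). Among the called genes 7090 differed at least 2-fold and 3391 at least 8-fold. The count moved with the R8Q10 libraries left out: it was 4430 without replicate 1, 4842 without replicate 2 and 4615 without replicate 3 of that line.

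Chromosome A10 stood apart from the rest of the genome, and calls on C9 leaned in the other direction. A10 had 780 of its 1539 genes called (50.7%), 718 higher and 62 lower in A28, and the median log2 fold change of all its genes was 1.02. C9 had 444 of its 2280 genes called (19.5%), 93 higher and 351 lower in A28, and its median was -0.26. Its share called was close to the 19.1% of C2, so C9 differed mainly in direction. On the other chromosomes, unplaced pieces and added genes, 6235 of 43388 genes (14.4%) were called and the median log2 fold change was 0.01. These 3088 higher and 3147 lower genes were close to an even split, and higher genes became the more frequent with DESeq2's size-factor scaling (3150 and 3084), upper-quartile scaling (3219 and 3065) and the DESeq2 test (5129 and 4707). The counts outside A10 and C9 were 3557, 3908 and 3704 without R8Q10 replicates 1, 2 and 3, and those on C9 were 201, 245 and 234. On C9 the count also depended on A28 replicate 1, without which it was 279.

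**Figure D1:**
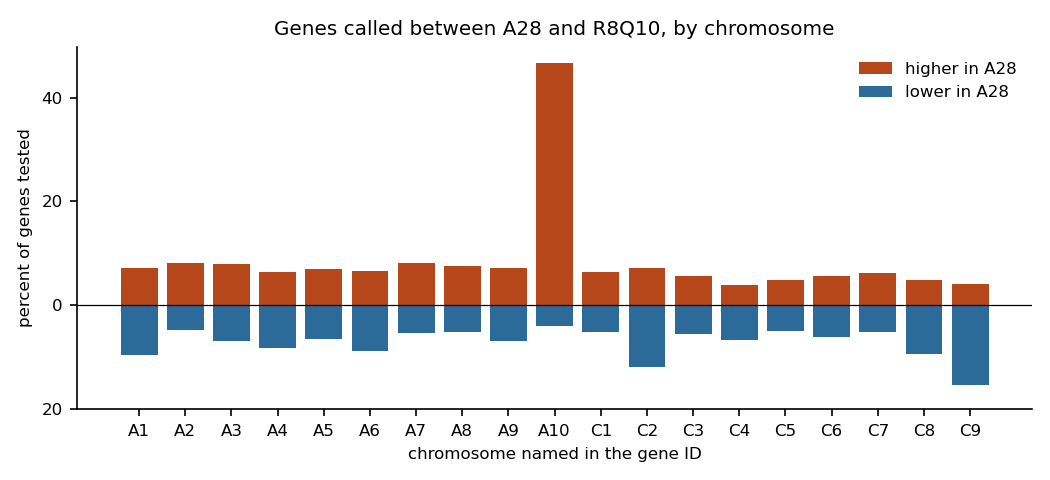
Percent of the tested genes of each chromosome that were higher (bars up) or lower (bars down) in A28 than in R8Q10 (edgeR quasi-likelihood test, adjusted p at or under 0.05). On A10 46.7% of the genes were higher in A28 and on C9 15.4% were lower, while other chromosomes had between 9.68% (C5) and 19.1% (C2) called in both directions together.

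Outside A10 and C9 the called genes were spread over all chromosomes, most thickly on C2 and A1. On C2, 322 of 1687 genes (19.1%) were called, 122 higher and 200 lower in A28, and on A1 312 of 1851 (16.9%), 133 higher and 179 lower. The lowest shares were on C5 (230 of 2376, 9.68%) and C4 (241 of 2287, 10.5%). Placed genes of the A subgenome were called more often than those of the C subgenome, 2611 of 18292 (14.3%) against 2175 of 17888 (12.2%), a difference given as a description. Genes on pieces without a chromosome were called in 730 of 4551 cases (16%). Of the 2657 genes that the authors added to the annotation 719 (27.1%) were called, 439 higher and 280 lower. Their median of mean CPM was 3.43, against 8.81 over all genes outside A10 and C9. The part of this low level in their share was not tested.

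Many of these differences were large, and genes of low level were called more often. Of the 6235 called genes outside A10 and C9, 2644 (42.4%) differed at least 8-fold. Genes with a mean under 1 CPM were called in 37.0% of 657 cases, those of 1 to 10 CPM in 16.3% of 22641, those of 10 to 100 CPM in 11.5% of 18815 and those of 100 CPM or more in 9.88% of 1275. All listed genes were over 1 CPM in 3 or more libraries, so a gene of low mean could be listed through 1 line alone. A gene listed that way had to differ, and the shares among low genes are given as a description.

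Apart from neighbours of BnaA01g06440D, called genes named from here on were chosen as at least 2-fold apart and without overlap in CPM. Their lack of overlap is therefore no separate result, and 36.8% of all genes do not overlap. Among the 6 genes of highest CPM that were higher in A28 outside A10 and C9, 1 had no counts at all in R8Q10. BnaA01g06440D, on A1, had 619, 571 and 653 CPM in A28 and 0 counts in each R8Q10 library. The lines did not overlap, and A28 was at least 21500-fold higher, taken against 3 counts over the R8Q10 libraries (edgeR adjusted p = 0.000761). BnaC01g35230D, on C1, had 437, 404 and 896 CPM in A28 and 13.6, 17.1 and 14.1 CPM in R8Q10. A28 replicate 3 was the highest, every A28 library lay above every R8Q10 library, and the log2 fold change was 5.28 ± 0.48 (SE, n = 3 per line, edgeR adjusted p = 0.00109). BnaC02g05070D, on C2, had 563, 934 and 475 CPM in A28 and 86.6, 111 and 58.0 CPM in R8Q10. Its lines were also apart, with a log2 fold change of 2.95 ± 0.45 (edgeR adjusted p = 0.00562).

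The other 3 of these genes differed less and with less certainty. BnaC05g20140D had 582, 622 and 555 CPM in A28 and 211, 146 and 168 CPM in R8Q10. BnaA03g10790D had 585, 700 and 505 CPM in A28 and 233, 228 and 238 CPM in R8Q10. BnaC04g01000D had 486, 727 and 610 CPM in A28 and 240, 252 and 140 CPM in R8Q10. None of these overlapped between the lines, and the log2 fold changes were 1.74, 1.36 and 1.53 (edgeR adjusted p = 0.0117, 0.0288 and 0.0390). BnaC04g01000D missed the threshold when any 1 library was left out, with adjusted p between 0.0583 and 0.140. BnaA03g10790D missed it without A28 replicate 1 (0.0777) and without R8Q10 replicates 1, 2 or 3 (0.135, 0.114 and 0.115). BnaC05g20140D missed it without R8Q10 replicate 2 (0.0629) or 3 (0.0662).

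Among genes lower in A28 outside A10 and C9, those of highest CPM were on A2 and C2. BnaA02g01450D had 113, 93.6 and 194 CPM in A28 and 1840, 1965 and 3171 CPM in R8Q10. BnaC02g04530D had 135, 202 and 327 CPM in A28 and 1677, 1490 and 2640 CPM in R8Q10. Replicate 3 was the highest library of both lines for both genes, no A28 library reached any R8Q10 library, and the log2 fold changes were -4.12 ± 0.55 and -3.13 ± 0.54 (SE, n = 3 per line, edgeR adjusted p = 0.00355 and 0.00954). BnaC02g12750D had 13.0, 7.24 and 14.3 CPM in A28 and 1410, 610 and 1725 CPM in R8Q10. With a log2 fold change of -6.76 ± 0.66 (edgeR adjusted p = 0.00132), it was the only one of the 6 that lay inside a run of neighbouring genes low in A28 by the stricter rule given below.

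The other 3 of these 6 genes were less certain. BnaC01g01140D had 249, 207 and 160 CPM in A28 and 513, 473 and 835 CPM in R8Q10. BnaC05g47950D had 254, 148 and 104 CPM in A28 and 651, 394 and 719 CPM in R8Q10. BnaC02g18030D had 43.2, 97.1 and 16.9 CPM in A28 and 384, 794 and 519 CPM in R8Q10. The lines did not overlap in any of them, and the log2 fold changes were -1.56, -1.80 and -3.43 (edgeR adjusted p = 0.0373, 0.0432 and 0.0195). BnaC01g01140D missed the threshold when any 1 library was left out (0.0672 to 0.114). BnaC05g47950D missed it without A28 replicates 2 or 3 (0.0862 and 0.0885) or R8Q10 replicates 1, 2 or 3 (0.135, 0.0610 and 0.130), and BnaC02g18030D without A28 replicate 1 (0.0779) or R8Q10 replicates 2 or 3 (0.0559 and 0.0535).

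**Figure D2:**
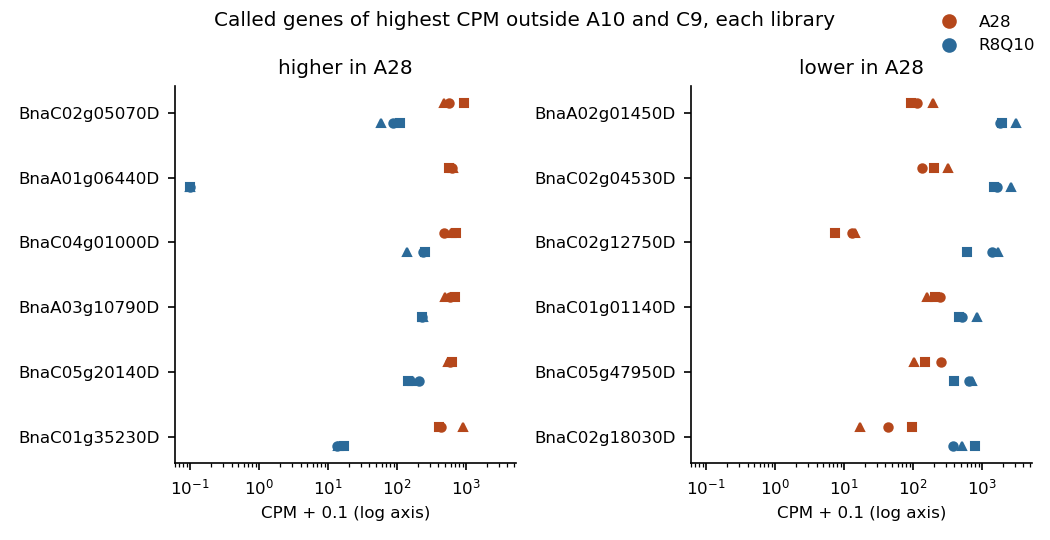
CPM plus 0.1 on a log axis in each A28 library (orange, upper of each pair of lines of points) and each R8Q10 library (blue, lower), for the 6 called genes of highest CPM in each direction outside A10 and C9. Circles, squares and triangles are replicates 1, 2 and 3. The lines do not overlap in any of these genes, which were chosen that way. BnaA01g06440D sits at the left edge in R8Q10 because all 3 libraries had 0 counts.

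The 5 genes of highest expression per length were not called, and in 3 of them the A28 libraries lay furthest apart. In the FPKM values deposited by the authors, BnaA06g40240D had 3931, 262 and 154 in A28 and 7038, 3268 and 4423 in R8Q10. BnaC07g18750D had 4983, 239 and 86.1 FPKM in A28 and 8461, 1606 and 1299 FPKM in R8Q10. BnaC05g31880D had 3127, 183 and 230 FPKM in A28 and 5689, 1586 and 2705 FPKM in R8Q10. In all 3 genes replicate 1 was the highest library of each line, and the lines overlapped because A28 replicate 1 exceeded at least 1 R8Q10 library. Their log2 fold changes were -1.81 ± 1.27, -1.15 ± 1.54 and -1.54 ± 1.22 (SE, edgeR adjusted p = 0.413, 0.687 and 0.470). BnaC07g18750D, uncalled throughout, had a log2 fold change of 0.25 without R8Q10 replicate 1. BnaA06g40240D passed the threshold without A28 replicate 1 (log2 fold change -4.57, adjusted p = 0.0380), and BnaC05g31880D with the replicate block (-2.56, 0.0384). BnaC04g30640D, the highest in the mean, was closer between libraries, with 4662, 6429 and 3228 FPKM in A28 and 8802, 6686 and 5759 FPKM in R8Q10. It and BnaC05g43050D had log2 fold changes of -0.59 and -1.67 (adjusted p = 0.522 and 0.153). BnaC05g43050D also spread in A28, with 1448, 247 and 1118 FPKM, against 2892, 2276 and 3670 FPKM in R8Q10. Its lines did not overlap. BnaC05g43050D passed with the replicate block (0.0358) and with DESeq2 (0.0367).

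The reference table gave a name to only 2 of the 47207 IDs, and neither gene was called. BnaA02g32290D, paired with the name KCP1, had 12.1, 10.9 and 10.4 CPM in A28 and 13.3, 12.7 and 18.9 CPM in R8Q10, with a log2 fold change of -0.43 ± 0.23 (edgeR adjusted p = 0.283). BnaCnng15100D, paired with TR1, had 32.6, 34.5 and 61.9 CPM in A28 and 35.6, 34.1 and 37.0 CPM in R8Q10, with a log2 fold change of 0.27 ± 0.30 (edgeR adjusted p = 0.608). The lines overlapped in TR1, while each A28 library lay below each R8Q10 library in KCP1.

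Genes listed for A28 and R8Q10 but not for SW and YH25005 held a larger share of called genes than those also listed there, given as a description. Of these 3499 genes 1078 (30.8%) were called, 504 higher and 574 lower in A28, against 6381 of the 43708 others (14.6%). Their median of mean CPM was 1.63, against 9.98 in the others, so this share stands beside that of low genes given above, and the part of the level in it was not tested. Most of them, 3320, lay outside A10 and C9. BnaA03g27500D, on A3, had 53.3, 26.7 and 116 CPM in A28 and 0.236, 0.101 and 0.284 CPM in R8Q10. All R8Q10 libraries were near the limit of a 0 count and all A28 libraries far above it (log2 fold change 8.30 ± 0.78, edgeR adjusted p = 0.00120). BnaCnng23020D had 2.04, 0 and 0.197 CPM in A28 and 108, 22.5 and 79.0 CPM in R8Q10. Its log2 fold change was -6.49 ± 1.45 (edgeR adjusted p = 0.0264), and it missed the threshold without A28 replicate 3 (0.0703) or R8Q10 replicates 1 or 3 (0.0765 and 0.0704).

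Genes that the authors added to the annotation carry only a number. Of those listed for A28 and R8Q10 only, Brassica_napus_newGene_15257 was lower in A28, with 22.5, 17 and 15.2 CPM against 75.3, 67.3 and 90.1 CPM in R8Q10 (log2 fold change -2.09, edgeR adjusted p = 0.00260). Brassica_napus_newGene_17243 was higher in A28, with 63.6, 67.8 and 134 CPM against 28.6, 32.1 and 32.0 CPM in R8Q10 (1.52, adjusted p = 0.0275). Brassica_napus_newGene_17243 lost its call without R8Q10 replicates 1, 2 or 3 (0.120, 0.0921 and 0.0977). Of all added genes, Brassica_napus_newGene_604 had 18.7, 38.2 and 41 CPM in A28 and 147, 125 and 177 CPM in R8Q10, without overlap (log2 fold change -2.20, edgeR adjusted p = 0.00876). Brassica_napus_newGene_5974 had a log2 fold change of -2.01 (0.0356) and missed the threshold without A28 replicate 1 (0.0590) or R8Q10 replicates 1, 2 or 3 (0.114, 0.0671 and 0.0979). Brassica_napus_newGene_17783 and Brassica_napus_newGene_5522, at log2 fold changes of 2.42 and 2.64, passed narrowly (0.0488 and 0.0494). Both lost the call without A28 replicates 1 or 3 or any 1 R8Q10 library, with adjusted p between 0.0615 and 0.173.

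Part of the difference outside A10 and C9 lay in runs of neighbouring genes that moved together. The median log2 fold change was taken in windows of 50 genes in the order of the IDs, and a stretch was a run of windows with a median of at least 1 in size. Stretches were found by the fold changes themselves, so their values are a description without a test. There were 15 stretches, 10 of them outside A10 and C9, on A1, A2, A7, A9, C2, C6 and C8. These 10 held 950 genes, of which 426 (44.8%) were called, 158 higher and 268 lower in A28. The other 42438 genes outside A10 and C9 held 5809 calls (13.7%), 2930 higher and 2879 lower. They include unplaced and added genes, which have no ID order and could not lie in a run. Among placed genes alone, 4360 of 35230 (12.4%) were called outside the runs, 2174 higher and 2186 lower. The calls of placed genes outside A10 and C9 thus lay mostly outside such runs.

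The stretches lower in A28 lay mainly on C chromosomes and held many genes with almost no counts in A28. On C8, from BnaC08g43040D to BnaC08g46700D, 94 of 150 genes were lower and 3 higher in A28, the median log2 fold change was -3.56, and 55 genes had at most 3 counts over the A28 libraries. BnaC08g45610D, inside it, had 0 counts in every A28 library and 107, 115 and 107 CPM in R8Q10, and was at least 3760-fold lower in A28. On C2, from BnaC02g10680D to BnaC02g14500D, 71 of 140 genes were lower, 5 were higher and the median was -1.87. A further C2 stretch, from BnaC02g36060D to BnaC02g38630D, mixed genes of both kinds. Its median was only -0.53 while its lower quartile was -10.12, and 32 of its 88 genes were lower in A28. On A1, from BnaA01g25880D to BnaA01g28080D, 34 of 89 genes were lower (median -0.37, lower quartile -4.50). BnaA01g27090D, inside it, had 0 counts in every A28 library and 110, 132 and 87.6 CPM in R8Q10, at least 3810-fold lower in A28. On C6, from BnaC06g39840D to BnaC06g41780D, 26 of 78 genes were lower and 9 higher, with a median of -0.05 and a lower quartile of -2.79.

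The stretches higher in A28 lay on A chromosomes and were shallow. On A2, from BnaA02g07930D to BnaA02g10030D, 38 of 104 genes were called higher in A28 and 3 lower, with a median of 1.09. Near the start of A9, 20 of 64 genes from BnaA09g00060D and 17 of 85 genes from BnaA09g01820D were higher, with medians of 0.99 and 0.94. Further along A9, from BnaA09g49430D to BnaA09g51230D, 39 of 89 genes were higher and 1 lower, with a median of 1.01. On A7, 16 of 63 genes from BnaA07g35060D were higher, with a median of 0.75. Among the genes of the A9 stretch at BnaA09g49430D, 0 had at most 3 counts in R8Q10.

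**Figure D3:**
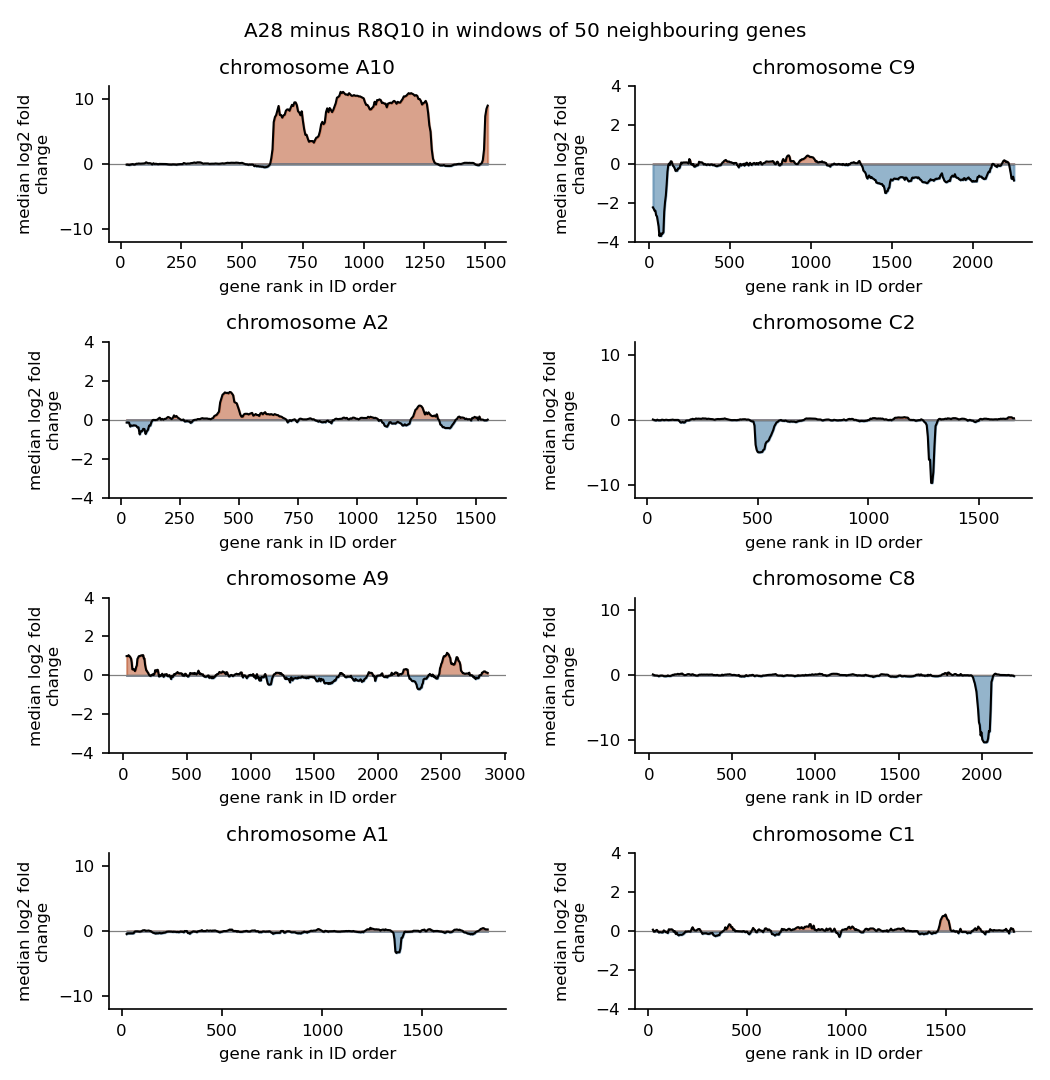
Median log2 fold change, A28 minus R8Q10, in windows of 50 neighbouring genes along 4 pairs of chromosomes, against the rank of the gene in ID order, with orange above 0 and blue below. The vertical axis runs to 12 on A10, C2, C8 and A1 and to 4 on the others. The low stretches on C2, C8, A1 and the start of C9 are deep, and the raised ones on A2, A9 and C1 are shallower, while A10 is high in A28 over a long middle part and near 0 on most of the rest, apart from a short part at its end.

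On A10 most of the difference lay in 1 long run. From BnaA10g12090D to BnaA10g25610D, 712 genes were listed, of which 616 were higher and 8 lower in A28, with quartiles of the log2 fold change of 3.85 and 11.10. In R8Q10, 377 of these genes had at most 3 counts over the 3 libraries and 310 had 0, while 0 had so few in A28. With the genes at 0 counts set to their lower bound the median was 7.14. The summed CPM of the run in R8Q10 was 13.0% of that in A28. Of that remainder 45.7% came from 10 genes, against 20.5% from the 10 of highest CPM in A28. In R8Q10, 79 genes reached at least 50% of their A28 mean and 550 lay at or under 10%. A shorter run at the end of A10, from BnaA10g29190D, held 71 genes, 37 of them higher in A28. In the 756 A10 genes outside both runs 116 (15.3%) were called, 65 higher and 51 lower, close to the 15.8% of all genes, and their median log2 fold change was 0.00.

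BnaA10g19670D, inside the long run, had 391, 654 and 316 CPM in A28 and 0 counts in every R8Q10 library. It was at least 15600-fold higher in A28 (edgeR adjusted p = 0.000960). BnaA10g14240D had 434, 400 and 522 CPM in A28 and 1.18, 11.3 and 1.58 CPM in R8Q10, with a log2 fold change of 6.59 ± 1.06 (edgeR adjusted p = 0.00721). R8Q10 replicate 2 stood above the other R8Q10 libraries, yet far below A28. BnaA10g20420D and BnaA10g15900D kept a clear level in R8Q10. BnaA10g20420D had 682, 327 and 996 CPM in A28 and 59.9, 50.3 and 169 CPM in R8Q10, and BnaA10g15900D had 347, 147 and 470 CPM in A28 and 72.2, 44.8 and 70.5 CPM in R8Q10. Their log2 fold changes were 2.84 and 2.36 (edgeR adjusted p = 0.0315 and 0.0203). BnaA10g20420D missed the threshold without A28 replicates 1 or 3 (0.0748 and 0.0677) or R8Q10 replicates 1 or 2 (0.129 and 0.103), and BnaA10g15900D without A28 replicate 1 (0.0581) or R8Q10 replicates 1, 2 or 3 (0.0774, 0.0816 and 0.0751).

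A few A10 genes went the other way. BnaA10g00690D, near the start of the ID order, had 11.3, 15.5 and 5.12 CPM in A28 and 79.2, 59.1 and 65.9 CPM in R8Q10, with no overlap (log2 fold change -2.67 ± 0.43, edgeR adjusted p = 0.00688). BnaA10g29400D, inside the shorter run, had 30.2, 23.8 and 22.7 CPM in A28 and 46.1, 55.7 and 55.7 CPM in R8Q10 (-1.04 ± 0.22, adjusted p = 0.0215). It missed the threshold without A28 replicate 2 (0.0532) or R8Q10 replicates 1, 2 or 3 (0.0598, 0.0806 and 0.0810).

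C9 held a deep stretch at its start and a wide shallow one. At the start, from BnaC09g00010D to BnaC09g03250D, 72 of 135 genes were lower in A28, with a median log2 fold change of -2.18. By the same rule 107 genes from BnaC09g37020D and 52 from BnaC09g43090D formed stretches with medians of -1.03 and -1.003. With a window median of 0.75, a limit chosen after the data were seen, these joined into 1 stretch of 785 genes, from BnaC09g35080D to BnaC09g50200D. Its median was -0.80 with quartiles of -1.20 and -0.36, and 211 genes were lower and 20 higher in A28. In the 1294 C9 genes outside all stretches of this wider kind 117 (9.04%) were called, 64 higher and 53 lower.

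The C9 genes named were chosen as called, at least 2-fold apart and of highest CPM, so their differences exceed the median of the stretch. BnaC09g46850D had 297, 275 and 254 CPM in A28 and 658, 623 and 732 CPM in R8Q10. The lines were well apart, with a log2 fold change of -1.28 ± 0.31 (edgeR adjusted p = 0.0346). BnaC09g38260D and BnaC09g47880D, also in the wide stretch, had log2 fold changes of -1.47 and -1.74 (edgeR adjusted p = 0.0259 and 0.0321). BnaC09g54000D, at -1.17 (edgeR adjusted p = 0.0280), lay in a separate stretch by the 0.75 limit, of 65 genes from BnaC09g53280D to BnaC09g54740D with a median of -0.72. BnaC09g46850D and BnaC09g54000D missed the threshold when any 1 library was left out (0.0664 to 0.120 and 0.0602 to 0.101). BnaC09g38260D did so without A28 replicates 2 or 3 or any 1 R8Q10 library (0.0532 to 0.0960), and BnaC09g47880D without A28 replicates 1 or 3 or R8Q10 replicates 1 or 2 (0.0588 to 0.101). Genes of the same wide stretch were also found higher in A28. BnaC09g43250D had 445, 673 and 320 CPM in A28 and 95.7, 121 and 57.6 CPM in R8Q10, and BnaC09g41380D had 642, 820 and 538 CPM in A28 and 290, 208 and 173 CPM in R8Q10. Neither overlapped between the lines, and their log2 fold changes were 2.39 and 1.58 (edgeR adjusted p = 0.0136 and 0.0322). BnaC09g43250D missed the threshold without R8Q10 replicates 1 or 3 (0.0688 and 0.0563), and BnaC09g41380D without A28 replicate 1 (0.0794) or R8Q10 replicates 1, 2 or 3 (0.0765, 0.123 and 0.135).

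As parts of the library, A10 and C9 moved in opposite directions by similar amounts. A10 genes held 3.43%, 3.31% and 3.55% of the counts in A28 and 1.84%, 1.88% and 2.05% in R8Q10. C9 genes held 4.72%, 4.77% and 4.83% in A28 and 5.97%, 6.14% and 6.24% in R8Q10. The lines did not overlap in either share, and the differences, A28 minus R8Q10, were 1.505 and -1.345 percentage points (exact permutation test over 20 splits, two-sided, p = 0.1 for each, the smallest that n = 3 per line allows, adjusted 0.244 over 22 shares). Together A10 and C9 held 8.15%, 8.08% and 8.38% in A28 and 7.81%, 8.02% and 8.29% in R8Q10. These sums overlapped (difference 0.160 percentage points, exact permutation p = 0.4, adjusted 0.55). Between libraries of the same replicate number A28 held more each time, by 0.340, 0.0539 and 0.0874 percentage points, where a paired exact test of 3 pairs could not go under 0.25.

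**Figure D4:**
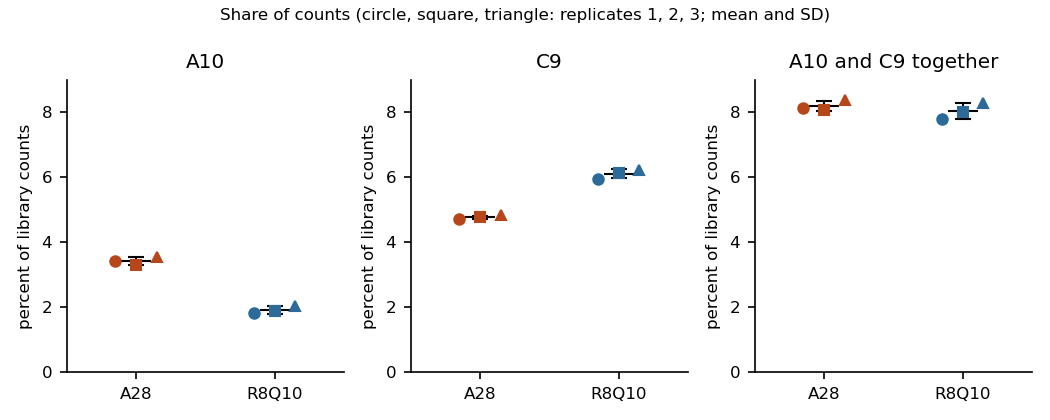
Percent of all counts of a library that fell on genes of A10, of C9 and of both, in A28 (orange) and R8Q10 (blue). Circles, squares and triangles are replicates 1, 2 and 3, and bars show the mean and SD (n = 3). A10 is higher and C9 lower in A28 without overlap, while their sum overlaps, at 8.08% to 8.38% in A28 and 7.81% to 8.29% in R8Q10.

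Other chromosomes also differed in their share without overlap. A2, A7, A9 and C3 held more of the counts in A28, by 0.447, 0.216, 0.446 and 0.427 percentage points, and the differences for A6 and C2 were -0.734 and -0.542 (A28 minus R8Q10, exact permutation p = 0.1 and adjusted 0.244 for each). Of counts assigned to either subgenome the A subgenome held 48.9% ± 0.46 in A28 and 46.6% ± 0.45 in R8Q10 (SD, n = 3, exact permutation p = 0.1). Without A10 and C9 these shares were 49.5% ± 0.52 and 48.6% ± 0.53, and the libraries overlapped (exact permutation p = 0.2). Within each replicate number A28 had the higher of these shares too, by 1.87, 0.677 and 0.211 percentage points.

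Low stretches of 1 subgenome were set beside the raised stretch on the matching chromosome of the other, with boundaries from the 0.75 limit. Opposite directions within a pair largely follow from this choice. Not paired were the stretches from BnaC02g35980D, BnaA02g01230D and BnaC03g07570D and those at the ends of A10 and C9. Which chromosomes match was taken from general knowledge of rapeseed and not from the files. The summed CPM of the long A10 run was 16543 ± 827 in A28 and 2361 ± 255 in R8Q10, and that of the wide C9 stretch was 18454 ± 273 in A28 and 31005 ± 1355 in R8Q10 (SD, n = 3). The 2 stretches together summed to 35112, 33871 and 36006 CPM in A28 and 33395, 31748 and 34955 CPM in R8Q10. The low side and the raised side differed without overlap between the lines, and their sums overlapped. Within each replicate number the sum was the higher in A28, by 1718, 2123 and 1050 CPM.

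Pairs that were low in A28 showed the same layout on other chromosomes. The C2 stretch summed to 1468 ± 33 CPM in A28 and 4709 ± 853 CPM in R8Q10, and the A2 stretch to 6613 ± 767 CPM in A28 and 3383 ± 238 CPM in R8Q10. Their totals were 8081 ± 796 CPM in A28 and 8092 ± 649 CPM in R8Q10, which overlapped. For C8 with the later A9 stretch the totals were 7858 ± 833 CPM in A28 and 8436 ± 362 CPM in R8Q10, and for the start of C9 with the start of A9 they were 6331 ± 541 CPM in A28 and 5598 ± 480 CPM in R8Q10, again overlapping. Within replicate numbers the first of these totals was lower in A28 each time (A28 minus R8Q10 -477, -128 and -1130 CPM), and the second higher (766, 797 and 638 CPM). The C2 and A2 total differed in sign between numbers (436, 923 and -1391 CPM). The A1 stretch summed to 1606 ± 97 CPM in A28 and 2392 ± 98 CPM in R8Q10, the C1 stretch to 2598 ± 263 CPM in A28 and 1542 ± 80 CPM in R8Q10, and their totals, 4204 ± 321 CPM in A28 and 3933 ± 33 CPM in R8Q10, overlapped and differed in sign between numbers (-62.7, 274 and 600.2 CPM). BnaC01g35230D, given above at log2 fold change 5.28, lay inside this C1 stretch. The pair of C6 and A7 did not follow. C6 summed to 1398 ± 171 CPM in A28 and 1901 ± 526 CPM in R8Q10. A7 summed to 1419 ± 61 CPM in A28 against 1434 ± 312 CPM in R8Q10, with the highest value of both in R8Q10 replicate 3. This depended on the boundary. The narrower A7 stretch of 63 genes, by the window median of 1, summed to 987, 913 and 885 CPM in A28. In R8Q10 it summed to 720, 575 and 716 CPM, without overlap. These sums are descriptions, since the stretches were picked by the fold changes of the same libraries. No source used here says to which copy a read matching both homoeologues was counted, and the level of a single copy is uncertain to that extent.

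**Figure D5:**
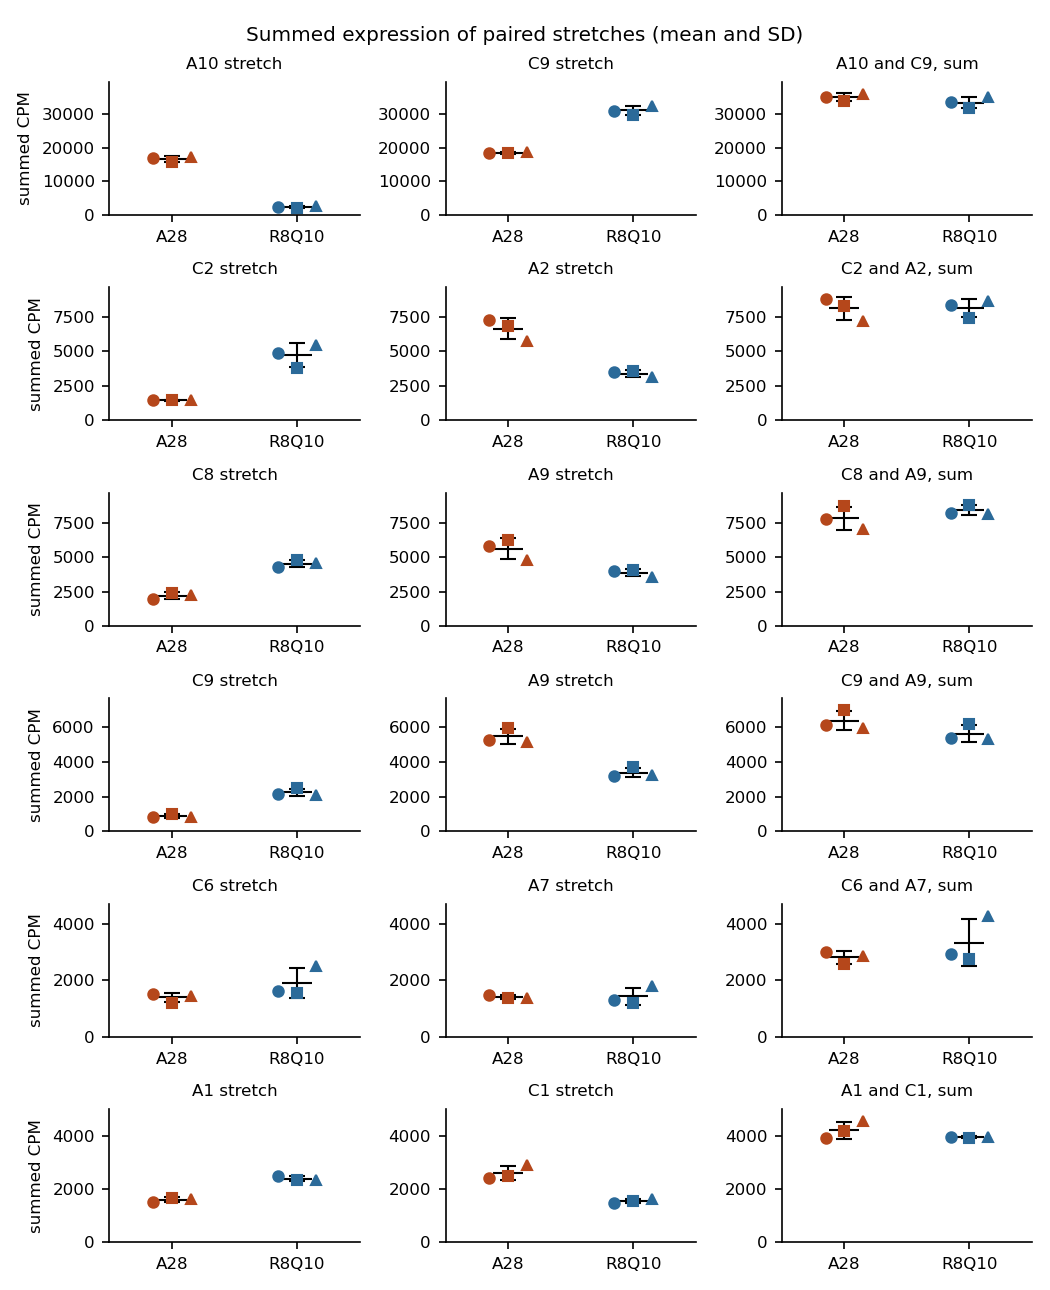
Summed CPM of paired stretches in each A28 (orange) and R8Q10 (blue) library, with the stretch that was low in 1 line on the left, its counterpart in the middle and both together on the right. Circles, squares and triangles are replicates 1, 2 and 3, and bars show the mean and SD (n = 3). In 5 of the 6 pairs 1 stretch is lower and the other higher in the same line and the totals overlap. In C6 with A7 the A7 stretch shows no such difference with the boundaries drawn here, while its narrower stretch by the window median of 1 was higher in A28. Each pair joins a low and a raised stretch by choice, so opposite directions largely follow from it. Stretches without a pair are not shown.

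Genes with almost no counts in 1 line and a clear level in the other were counted on their own. With at most 3 counts over the libraries of 1 line and at least 10 CPM in every library of the other, 133 genes were near absent in A28 and 213 in R8Q10. Of the genes near absent in A28, 124 lay outside A10 and C9, 25 of them on C8, 19 on C2 and 12 on A1, and 54 inside the stretches described. Of those near absent in R8Q10, 144 lay on A10 and 69 outside A10 and C9, and 1 of these 69 was inside a stretch. The counts outside A10 and C9 include genes whose ID names no chromosome, 31 for A28 and 28 for R8Q10. Such genes could not fall inside a stretch, and their true chromosome is not known. Many had a neighbour in the same state: among placed genes outside A10 and C9, 45 of 93 (48.4%) near absent in A28 lay next to a listed gene with at most 3 counts in A28, a state of 1.21% of all placed genes there. In R8Q10 13 of 41 (31.7%) did, against 0.719%. A low gene on either side counted, while 1.21% and 0.719% are shares of single genes, so the percentages are not like measures. BnaCnng01440D, on an unplaced piece of the C subgenome, had 0 counts in every A28 library and 387, 210 and 348 CPM in R8Q10, at least 10500-fold lower in A28. BnaC03g07200D had 124, 93.7 and 204 CPM in A28 and 0 counts in every R8Q10 library, at least 4860-fold higher in A28.

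Around BnaA01g06440D on A1 lay a small group of genes with 0 counts in R8Q10. BnaA01g06410D, BnaA01g06420D and BnaA01g06480D also had 0 counts in all its libraries, though BnaA01g06410D and BnaA01g06480D were under 10 CPM in 1 or more A28 libraries and outside the count above. BnaA01g06420D had 129, 138 and 265 CPM in A28, at least 6030-fold above R8Q10, BnaA01g06410D had 4.46, 30.6 and 20.3 CPM and BnaA01g06480D 12.5, 19.6 and 8.6 CPM in A28. The genes between them were present in both lines. BnaA01g06430D had 4.29, 3.23 and 3.84 CPM in A28 and 3.83, 2.68 and 3.47 CPM in R8Q10 (edgeR adjusted p = 0.744), and BnaA01g06470D had 26.7, 14.7 and 16.8 CPM in A28 and 28.8, 25.2 and 20.9 CPM in R8Q10 (edgeR adjusted p = 0.464). These neighbours were looked at after BnaA01g06440D had been seen, and they are given as a description.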

How the data were processed

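Poly-A libraries were sequenced as Illumina read pairs, per the labels' protocols, in which strand is not mentioned. Overlapping and antisense genes therefore cannot be told apart. Per the submitters' processing notes, bcl2fastq, HISAT2 and DESeq2 were used, with no version named. The build, annotation, counting program and treatment of multi-matching reads were not given in any source used here. Per the file headers, every file gives a gene's count and its FPKM. The deposited counts are whole numbers and were tested as such. Deposited FPKM values were only described. No other columns of samples were present (0).

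The 6 libraries were assigned to lines by their titles and tested alone in R 4.3.3 by the quasi-likelihood test of edgeR 4.0.16 (TMM scaling, and a filterByExpr step that removed 0 genes), with Benjamini-Hochberg adjustment over 47207 genes at 0.05. DESeq2 1.42.0 and limma 3.58.1 served as alternatives. The procedure was run on simulated data with the same spread in both lines and known changes in a small set of genes. The real lines differed in spread and in many more genes, so that run does not show how the tests perform on these data. Chromosome shares used an exact permutation test. Folds against 0 counts use a floor of 3 counts over a line's 3 libraries on TMM-scaled sizes, which covers counting error only. Deviations of same-numbered libraries of the lines correlated at 0.12, 0.55 and 0.41 for replicates 1, 2 and 3, against -0.53 to 0.19 for unlike numbers. A28 replicate 1 correlated more with R8Q10 replicate 3 (0.19) than with R8Q10 replicate 1. Deviations within a line balance out, so these values are not independent. They are a hint, weakest for replicate 1, that replicate numbers pair the samples, which no label states. On the 2nd principal axis of log2 CPM, with 15.8% of the variance, replicates took the same order in both lines. Replicates 1, 2 and 3 scored 10.8, -161 and 128 in A28 and 8.06, -67.3 and 81.3 in R8Q10. With the replicate block 10174 genes were called, against 7459 without it. P-values are from the fit without the block unless the block is named, and the blocked fit is an alternative.

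Genes named were called, at least 2-fold apart and without overlap in CPM (36.8% of all genes do not overlap): those of highest CPM in each direction outside A10 and C9, among near-absent genes, on A10, on C9, among genes listed for these lines only and among added genes, and the 5 of highest FPKM and those with a reference name, called or not. The genes beside BnaA01g06440D fall outside this rule. The RefSeq gene table for Da-Ae matched 2066 IDs, and 94.0% of 1833 placed ones lay on the chromosome the ID names. ID order and reference order had rank correlations with a median size of 0.871 over chromosomes and a smallest size of 0.627. These were taken without sign, so a chromosome numbered in reverse would not show. None of 17 gene lists could be matched (0), so no gene list or cell type marker is reported. The comparison, rules and lists were chosen with earlier results of these data known.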

Additional observations from a re-analysis of the deposited data

How the results depend on the processing

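DESeq2 called 11386 genes in all, 9836 outside A10 and C9 and 687 on C9, and limma with quality weights 11718, 10094 and 739. Leaving out 1 library at a time gave 4430 to 8068 in all, 3557 to 6839 outside and 201 to 444 on C9. With the replicate block, the paired fit, 10174 genes were called (8707 outside, 823 on A10, 644 on C9), 7258 of the 7459 among them, and it moved no count by over 1.5 times. Counts on A10 stayed within 1.5 times of 780 under every setting run. With only genes also listed for SW and YH25005, 6209 were called. Windows of 25 genes gave 28 stretches (18 outside A10 and C9), windows of 100 gave 6 (3), and a window median of 0.5 gave 43 (37). With at most 10 counts and at least 5 CPM, 301 genes were near absent in A28 and 447 in R8Q10. Over 655 combinations of a named gene and a setting, 88 lost the call and 4 gained it, and 2 changed direction, both in genes called neither way: BnaC07g18750D had log2 fold changes from -4.56 (without A28 replicate 1) to 0.25 (without R8Q10 replicate 1), and BnaCnng15100D from -0.084 (without A28 replicate 3) to 0.45 (without A28 replicate 2). Window medians of 0.75 and 0.5, the near-absent limits and their omissions, the count without stretches and the settings for genes listed only for these lines were chosen after seeing the data. Depth limits the near-absent genes: 0 counts allow up to 0.0995 CPM in the shallowest library.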
